A study of Mus musculus with 2 samples.

Results

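The angiopoietins, the VEGFs and the angiopoietin-like factors were examined in primary perivascular cells (PCs) of the mouse aorta, as a list of 10 genes chosen by symbol for what they encode: the VEGF ligand genes Vegfa, Vegfb, Vegfc and Pgf, the VEGF receptor genes Flt1 and Kdr, the angiopoietin genes Angpt1 and Angpt2, and the angiopoietin-like genes Angptl2 and Angptl4. Each of the 10 was found among the 20211 gene symbols of the expression tables, on a single row. RNA was sequenced from 1 library of WT PCs and 1 library of Kai1-/- PCs, both on the C57BL/6 background and both grown in DMEM, for which the labels give 10% FBS and the study's methods a higher share. Kai1 is the gene Cd82, which encodes the tetraspanin KAI1. Neither the sex, the age nor the number of the animals behind each library is given in the labels, and the methods read here describe how a Kai1-GFP line was made, not how the null allele was. Levels are in RPKM, read counts scaled to transcript length and to the mapped reads of the library, so that genes of different length can be compared within a library. No p-value was computed, since each genotype had 1 library, and a difference between the libraries includes any difference between animals, cultures and preparations.

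VEGF ligands are secreted dimers that signal through receptor tyrosine kinases on endothelial cells. VEGF-A binds FLT1 (VEGFR1) and KDR (VEGFR2), VEGF-B and PlGF, the product of Pgf, bind FLT1, and VEGF-C and VEGF-D bind FLT4 (VEGFR3). KDR carries most of the mitogenic signal of VEGF-A, whereas FLT1 binds it tightly and limits what reaches KDR. Angiopoietins act on the endothelial receptor TEK (TIE2): ANGPT1, which mural cells typically supply, activates it and stabilises vessels, and ANGPT2 antagonises it in many settings. Angiopoietin-like proteins share the fold of angiopoietins but do not bind TEK. ANGPTL4 inhibits lipoprotein lipase and is a known target of hypoxia signalling and of PPAR receptors, and ANGPTL2 is a secreted factor tied to inflammation in vessels and fat.

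The targeted gene Cd82 had an RPKM of 12.8 in the WT and 2.62 in the Kai1-/- library, so it was reduced and not absent. The deposited values came without read counts, and the steps between low values corresponded to about 29500000 reads for WT and 26700000 for Kai1-/-. Mural genes were present in both libraries, with Acta2, the smooth muscle actin gene, at 3823 and 2580 and Pdgfrb, the PDGF receptor of pericytes, at 44.7 and 31.6. Of the 8 mural markers kept at a mean of 1 RPKM or more, 5 were more than 2-fold lower in the Kai1-/- library. Of all 10068 genes kept, 7.81% were lower by that measure and 7.98% higher, with a median log2 ratio of 0.08. The median of the 8 mural markers was -1.16, with Acta2 and Pdgfrb among the least different. The lowest ratios were those of Mcam (4.90 and 0.264, log2 ratio -3.78), Myh11 (2.96 and 0.346, -2.78), Myl9 (1259 and 217, -2.53) and Cnn1 (120 and 49.2, -1.28). The summed RPKM of the 14 mural markers, dominated by Acta2, was 5906 and 3196. Of the pericyte markers, Rgs5 (0.0630 and 0.233), Kcnj8 (0 and 0.791) and Abcc9 (0.0411 and 0.0303) were near 0. Cspg4, the gene of NG2, by which the study marked pericytes, was at 15.4 and 8.27 (log2 ratio -0.89). Of 11 fibroblast markers kept, 5 were more than 2-fold lower, with the lowest ratios in Pi16 (-2.10), Dpt (-1.84), Ly6a (-1.25) and Pdgfra (-1.15). The 2 with a ratio above 0 were Col3a1 (67.5 and 101, 0.59) and Thy1 (324 and 380, 0.23). The median of the 11 was -0.79, and the sum over all 12 was 4526 and 2764. The 5 macrophage markers kept all lay past 2-fold. Csf1r (11.7 and 2.66), Tyrobp (10.4 and 2.37), Fcer1g (11.3 and 2.47) and Lyz2 (3.44 and 1.09) were lower and Cd14 (1.98 and 10.3) was higher. The sum of all 13 macrophage markers was 40.9 and 19.5, with Emr1 and Aif1 listed at 0 in both. The 4 Y-linked genes looked up (Ddx3y, Eif2s3y, Kdm5d and Uty) were listed at 0 in the Kai1-/- library alone, with Ddx3y at 6.56 in WT, so that sex and genotype cannot be told apart. The part of these differences in the values below was not tested, and in bulk RNA fewer cells of a type and less RNA per cell cannot be told apart.

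The RefSeq promoter table used here matched 7 of the 10 genes, with Angpt1, Angpt2 and Angptl4 unmatched. The 250 bases before the annotated start are shown for the receptor gene Flt1 and its 3 ligand genes, because these ligands differed in how their transcripts compared between the libraries. Each window matched the NCBI37 (mm9) genome once and lay outside the genes of the GENCODE M1 annotation of that build, at chr12:86518264-86518513 for Pgf, chr17:46169327-46169576 for Vegfa, chr19:7062142-7062391 for Vegfb and chr5:148537588-148537837 for Flt1, all on the minus strand. Capitals mark the core of the hypoxia response element, ACGTG or GCGTG on either strand, where CACGTG counts as a match on both strands.
Pgf: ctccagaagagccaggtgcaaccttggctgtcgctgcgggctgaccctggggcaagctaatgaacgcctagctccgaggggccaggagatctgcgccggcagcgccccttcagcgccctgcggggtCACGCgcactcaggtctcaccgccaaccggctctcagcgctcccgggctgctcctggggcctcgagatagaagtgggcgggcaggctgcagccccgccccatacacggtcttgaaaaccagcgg
Vegfa: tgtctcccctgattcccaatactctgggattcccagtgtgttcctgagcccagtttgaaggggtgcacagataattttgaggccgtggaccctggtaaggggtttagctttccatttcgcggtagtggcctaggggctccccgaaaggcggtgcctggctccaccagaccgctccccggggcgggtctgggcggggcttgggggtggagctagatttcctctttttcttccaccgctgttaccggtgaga
Vegfb: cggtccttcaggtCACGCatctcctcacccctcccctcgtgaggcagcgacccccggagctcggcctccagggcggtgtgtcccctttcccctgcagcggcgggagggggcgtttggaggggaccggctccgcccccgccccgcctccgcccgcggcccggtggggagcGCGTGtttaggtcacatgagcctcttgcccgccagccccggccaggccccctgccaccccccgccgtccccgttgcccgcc
Flt1: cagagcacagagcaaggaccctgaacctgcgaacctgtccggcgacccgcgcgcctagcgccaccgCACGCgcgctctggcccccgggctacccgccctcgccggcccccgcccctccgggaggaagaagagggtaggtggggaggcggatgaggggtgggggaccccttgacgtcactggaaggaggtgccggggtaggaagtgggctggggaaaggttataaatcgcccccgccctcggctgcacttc
The core began 124 bases before the start in Pgf, 184 bases before it in Flt1, and 237 and 81 bases before it in Vegfb. The Vegfa window held none, which says only that these letters are not in this stretch. Of the 7 windows, 4 held the core, and of 27025 windows of the same length from RefSeq 38.6% did. A match is a description of the sequence and not evidence of binding.

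Among the VEGF ligands, Pgf differed most between the libraries and the most abundant ligand genes differed little. Pgf (chr12:86507589-86518246, minus strand, 1 annotated transcript) measured 11.2 RPKM in the WT library against 3.27 RPKM in the Kai1-/- library, 29.2% of WT. The WT library was the higher one by 3.42-fold. Its log2 ratio of Kai1-/- to WT, computed as log2((RPKM + 0.1)/(RPKM + 0.1)), was -1.75. The values corresponded to about 457 and 121 reads, and the 95% interval of the log2 ratio from these reads was -2.07 to -1.48. This interval is an exact binomial one without the added 0.1 and covers counting error only, as do the others given here. Genes were kept for comparison where both libraries averaged 1 RPKM or more, and 3.0% of these 10068 genes had a ratio below that of Pgf.

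Vegfa (chr17:46153942-46169326, minus strand) was the most abundant of the 10 genes in WT PCs. Its level was 45.2 RPKM there and 35.2 RPKM in the Kai1-/- library, and the log2 ratio -0.36 (interval -0.43 to -0.30). About 4444 and 3121 reads lay behind these levels, and 24.2% of the genes kept had a lower ratio. The annotation holds 14 transcripts of Vegfa, and the tables give 1 value for the gene, so the known splice forms of VEGF-A were not resolved. Vegfb (chr19:7056963-7062141, minus strand) gave 41.6 RPKM in WT and 36.8 RPKM in Kai1-/-, a log2 ratio of -0.18 (interval -0.30 to -0.06). For both genes the Kai1-/- library was the lower one by less than 2-fold and by more than counting error. Vegfc (chr8:55162886-55271808, plus strand), which encodes a lymphatic growth factor, was far less abundant, at 1.85 RPKM in WT and 1.0 RPKM in Kai1-/-. Its log2 ratio was -0.82, and with about 92 and 45 reads the interval ran from -1.43 to -0.36, so that a 2-fold difference lay within counting error.

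The makeup of the ligand transcripts was compared as shares and ratios within each library, which do not depend on the scaling of the libraries. The summed RPKM and the log2 ratio given with them do depend on it. Transcripts of the 3 FLT1 ligand genes summed to 98.0 RPKM in the WT and 75.2 RPKM in the Kai1-/- library. Pgf made up 11.4% of this sum in WT and 4.35% in Kai1-/- PCs, Vegfa 46.1% and 46.8%, and Vegfb 42.4% and 48.9%. The ratio of Vegfa to Pgf was 4.04 in WT and 10.7 in Kai1-/- PCs, whereas that of Vegfa to Vegfb was 1.09 and 0.956. VEGF-D, listed under its older symbol Figf and not among the 10 genes, was more abundant than any of the 4 VEGF ligand genes in both libraries, at 60.9 and 59.4 RPKM, with a log2 ratio of -0.04. It made up 37.9% of the 5 ligand genes in WT and 43.8% in Kai1-/- PCs, and the ratio of Figf to Vegfc, the other FLT4 ligand gene, was 33.0 in WT and 59.2 in Kai1-/-.

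**Figure D1:**
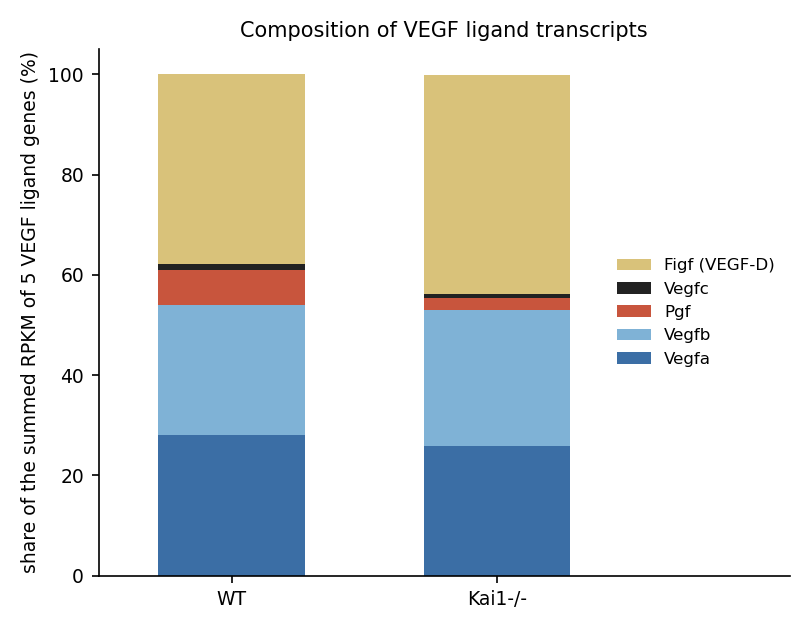
Share of each of 5 VEGF ligand genes in their summed RPKM (y axis, percent), with 1 bar per library. The Pgf segment is 6.97% of the WT bar and 2.41% of the Kai1-/- bar, and the Figf segment is the largest in both.

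The receptor genes were low in both libraries. Flt1 (chr5:148373180-148537587, minus strand) gave 1.23 RPKM in WT and 1.01 RPKM in Kai1-/-. The tables hold 1 value for its 5 annotated transcripts, so the membrane-bound and the soluble receptor were not told apart. Its log2 ratio was -0.25, with about 243 and 181 reads and an interval from -0.56 to 0.01 that included 0. The ratio of Vegfa to Flt1 was 36.9 in WT and 34.6 in Kai1-/- PCs. Kdr (chr5:76328852-76374483, minus strand) was at 0.122 RPKM in WT PCs, about 21 reads, and was listed at 0 in Kai1-/- PCs. A count of 0 allows up to 3 reads, or an RPKM of 0.0196 for this gene. The Poisson interval of the WT value of Kdr, 0.0769 to 0.190, lay above that RPKM of 0.0196, so the WT library was the higher one by more than counting error. Of the 1332 genes within 2-fold of the WT value of Kdr, 38.1% were listed at 0 in the Kai1-/- library. These genes were matched on RPKM and not on reads, so this share cannot tell how common a 0 is for a gene with about 21 reads in WT. No fold change is given for Kdr.

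Flt1 and Kdr are also endothelial markers, and the other genes of that list were sparse. Of the 16 other endothelial markers, 6 were listed at 0 in both libraries, 6 in the Kai1-/- library alone and 0 in the WT library alone. Zeros were also more frequent in the Kai1-/- library among all 20211 symbols, with 5690 at 0 in WT, 6902 in Kai1-/- and 5423 in both. Pecam1, the CD31 gene, was at 0.413 in WT and 0 in Kai1-/- PCs, and Cdh5, the VE-cadherin gene, at 0.0267 and 0. The summed RPKM of the 16 was 4.73 in WT and 7.83 in Kai1-/- PCs, and without Egfl7 (2.28 and 7.39) it was 2.45 and 0.436. The largest of the rest was Ptprb, at 1.10 in WT and 0.198 in Kai1-/- PCs, from about 381 and 62 reads. Egfl7 and Sox18 (0.0238 and 0.132) went the other way. The defining markers Pecam1 and Cdh5 were thus near 0 in both libraries, though Pecam1 had about 40 reads in WT. The part of endothelial transcripts in the values of Flt1 and Kdr was not tested.

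Of the angiopoietins, Angpt2 was expressed and Angpt1 was not detected. Angpt2 (chr8:18690263-18741562, minus strand) measured 9.77 RPKM in WT and 5.89 RPKM in Kai1-/-, 60.3% of WT, from about 970 and 528 reads. The gene lies opposite the gene Mcph1 and shares 0 exon bases with it. Its log2 ratio was -0.72, and the counting interval ran from -0.89 to -0.58, short of 2-fold with the libraries as deposited. The ratio was past 2-fold with equal RPKM sums (-1.20) and with scaling to Gapdh (-1.21). Angpt1 (chr15:42256273-42508523, minus strand) was listed at 0 in both libraries, which allows an RPKM of up to 0.0250 in WT and 0.0277 in Kai1-/- PCs by the same count of 3 reads. Of this pair Angpt2 was thus the one detected, in both genotypes, and their ratio could not be formed. Angpt4, a further angiopoietin gene outside the list, was at 3.53 RPKM in WT PCs, about 223 reads, and was listed at 0 in Kai1-/- PCs. Among the 3467 genes within 2-fold of its WT value, 0.750% were at 0 in the Kai1-/- library. Their receptor gene Tek was at 0.409 and 0, and Tie1, the related orphan receptor, at 0.0184 and 0.

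Of the 8 genes kept, Angptl4 alone was higher in the Kai1-/- library. Angptl4 (chr17:33910695-33918520, minus strand) measured 25.0 RPKM in WT and 68.9 RPKM in Kai1-/-, a 2.76-fold higher level. The log2 ratio was 1.46, with about 2105 and 5246 reads and an interval from 1.39 to 1.54, and 2.9% of the 10068 genes had a higher ratio. With the Kai1-/- library scaled to the same RPKM sum as WT the ratio was 0.98, and scaled to Gapdh it was 0.96, in both cases just under 2-fold. Angptl2 (chr2:33071589-33103237, plus strand), which lies opposite Ralgps1 without shared exon bases, was nearly level, at 32.5 and 31.0 RPKM, with a log2 ratio of -0.07 and an interval from -0.14 to 0.01. The ratio of Angptl4 to Angptl2 was 0.769 in WT and 2.22 in Kai1-/- PCs, so their order was exchanged, and this ratio does not depend on the scaling of the libraries. The ratio of Angptl4 to Angpt2 was 2.56 and 11.7.

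**Figure D2:**
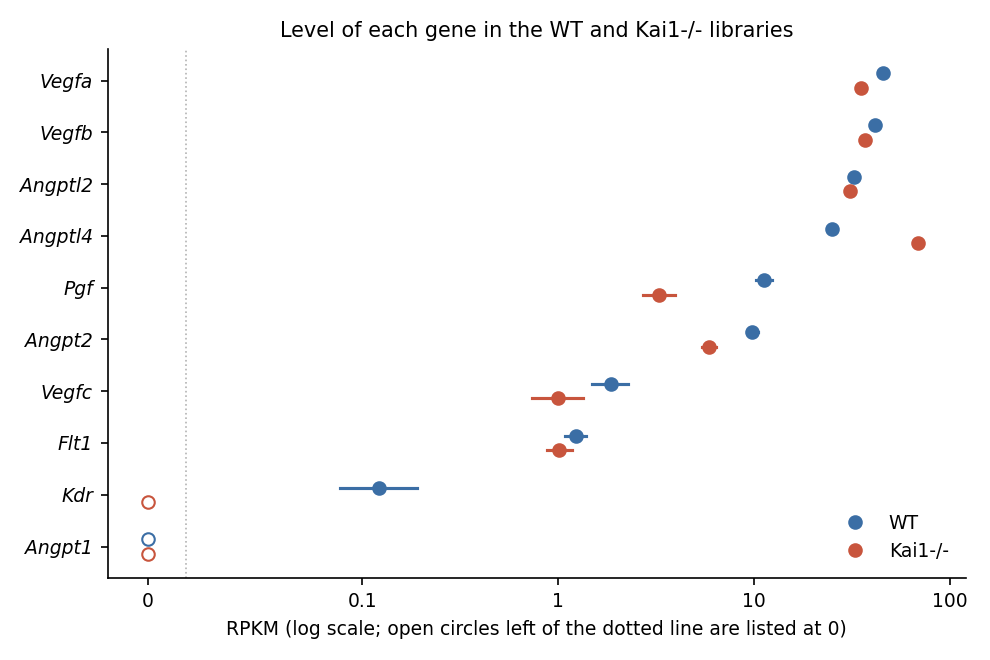
RPKM of each of the 10 genes on a log axis in the WT (blue) and Kai1-/- (red) library, with 95% Poisson intervals from estimated reads as bars, many of them narrower than the point, and open circles for genes listed at 0. Angptl4 lies to the right of its WT point in Kai1-/- PCs, Pgf to the left, and Vegfa, Vegfb and Angptl2 are nearly superposed.

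The order of the levels differed mainly through Angptl4. In WT PCs it ran Vegfa, Vegfb, Angptl2, Angptl4, Pgf, Angpt2, Vegfc, Flt1, Kdr and Angpt1. Vegfa and Vegfb were neighbours whose Poisson intervals met at 43.9, and those of Pgf (10.2 to 12.3) and Angpt2 (9.17 to 10.4) overlapped. In Kai1-/- PCs Angptl4 came first, from 4th place in WT, followed by Vegfb, Vegfa, Angptl2, Angpt2, Pgf, Flt1 and Vegfc. There the intervals of Vegfb (34.6 to 39.0) and Vegfa (33.9 to 36.4) overlapped, as did those of Flt1 (0.871 to 1.17) and Vegfc (0.732 to 1.34). Angptl4 supplied 14.8% of the summed RPKM of the 10 genes in WT and 37.7% in Kai1-/- PCs, while the sum itself was 168 and 183.

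Of the 8 genes kept, 7 had a log2 ratio below 0 and 1 above it, and the counting intervals of Flt1 and Angptl2 included 0. Of all 10068 genes kept, 4522 were below 0 and 5546 above it. More than 2-fold lower was 1 gene, Pgf, where 7.81% of all 10068 genes were, and more than 2-fold higher was 1 gene, Angptl4, where 7.98% of all genes were. Among genes with a mean RPKM from 5 to under 20, where Pgf lies, 5.57% were more than 2-fold lower, and among genes from 20 to under 100, where Angptl4 lies, 7.66% were more than 2-fold higher. The other 6 genes kept lay within 2-fold. The median log2 ratio of the 8 genes was -0.31, beside 0.08 for all genes kept. Setting both libraries to the same RPKM sum moved the median of all genes to -0.39 and that of the 8 genes to -0.77, and with it Angpt2 (-1.20) and Vegfc (-1.26) joined Pgf (-2.21) below 2-fold, whereas 0 genes stayed above it. Under that scaling 18.0% of all genes lay past 2-fold on the lower side and 2.84% on the higher side. Relative to the median of all genes, the ratio was -1.83 for Pgf, -0.90 for Vegfc, -0.80 for Angpt2, -0.44 for Vegfa, -0.33 for Flt1, -0.26 for Vegfb, -0.15 for Angptl2 and 1.38 for Angptl4.

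**Figure D3:**
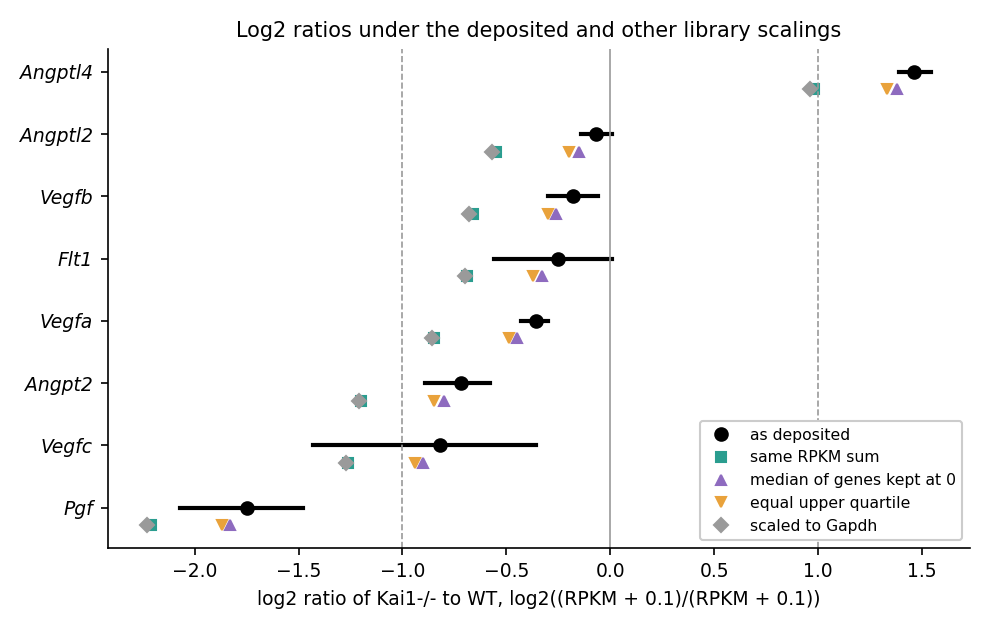
Log2 ratio of Kai1-/- to WT (x axis) for the 8 genes kept, as deposited (black, with the 95% interval from estimated reads, which leaves out the added 0.1) and under 4 other scalings of the libraries (coloured marks). A scaling moves all genes by nearly the same amount and so keeps their order. Angptl4 lies at 1.46 as deposited and at 0.96 to 1.38 under the others, and the dashed lines mark 2-fold.

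**Figure D4:**
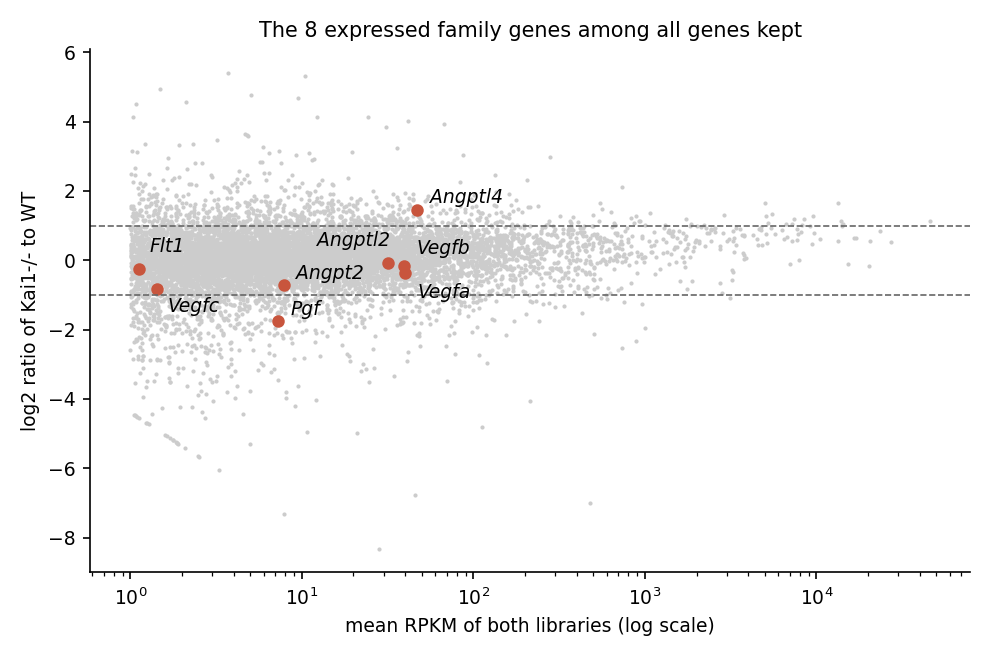
Log2 ratio (y axis) against mean RPKM of both libraries (x axis, log scale) for the 10068 genes kept (grey), with the 8 genes in red and dashed lines at 2-fold. Angptl4 lies above the upper line, Pgf below the lower one, and the other 6 in between.

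Other genes of VEGF and angiopoietin signalling were taken from a list of 20, of which 13 passed the filter. Past 2-fold lay 2 lower and 2 higher genes, the other 9 lay within it, and the median log2 ratio was -0.40, which does not depend on the value given to Angpt4. Of all genes kept, 7.81% were lower and 7.98% higher by that measure, with a median of 0.08. With equal RPKM sums, which moved all genes down, 5 of the 13 were lower and 0 higher, where 18.0% and 2.84% of all genes were. As deposited, the lower ones were Angpt4 and Itgav, the integrin alpha-v gene (24.4 in WT and 8.40 in Kai1-/-, log2 ratio -1.53). The higher ones were the semaphorin genes Sema3a (2.60 and 7.14, log2 ratio 1.42) and Sema3e (1.07 and 2.83, log2 ratio 1.33), at 0.95 and 0.86 with equal sums, whose products bind neuropilin 1 and plexin D1 respectively. The VEGF coreceptor genes Nrp1 (9.31 and 13.9, log2 ratio 0.57) and Nrp2 (2.17 and 2.58, log2 ratio 0.24, but -0.23 with equal RPKM sums) and the semaphorin receptor gene Plxnd1 (2.04 and 1.69, log2 ratio -0.26) lay within 2-fold. So did the integrin genes Itga5 (78.1 and 40.0, log2 ratio -0.96), Itgb1 (273 and 207, -0.40) and Itgb3 (1.92 and 1.07, -0.80). Sema3c (-0.68), Svep1 (-0.49) and Figf lay within it too. With equal RPKM sums Itga5 (-1.45), Itgb3 (-1.23) and Sema3c (-1.11) were past 2-fold, and Nrp1 was at 0.09. Itgb1 (-0.88) and Svep1 (-0.96) stayed within it. FLT4, the receptor of VEGF-C and VEGF-D, was nearly absent as a transcript, with Flt4 at 0.150 and 0.106.

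The angiopoietin-like and lipase list had 12 genes, of which 4 were kept, 2 of them past 2-fold on the lower side and 0 on the higher side. Of all genes kept, 7.81% were lower and 7.98% higher by that measure, and a list of 4 is too short to set against these shares. Angptl6, another angiopoietin-like gene, was at 6.44 RPKM in WT and 1.15 RPKM in Kai1-/- (log2 ratio -2.38). Fcna, which encodes ficolin A with a fibrinogen-like domain, was at 4.06 and 0.235 RPKM (log2 ratio -3.63), from about 141 and 7 reads. It passed the filter through its WT value alone. Lmf1, a lipase maturation factor gene, was nearly level (17.9 and 17.2, log2 ratio -0.06). Angptl8, listed as Gm6484, had a log2 ratio of -0.09 (2.29 and 2.15). With about 45 and 38 reads, the interval of Angptl8 ran from -0.76 to 0.56. The angiopoietin-like genes thus lay on both sides of 0, with Angptl4 higher, Angptl6 lower and Angptl2 level. Lpl, the lipoprotein lipase gene whose product ANGPTL4 inhibits, was below the filter, at 1.04 in WT and 0.0586 in Kai1-/- PCs.

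Angptl4 and Vegfa are known targets of hypoxia signalling, and a list of 27 other genes was described beside them. The list holds response genes together with genes of the signalling itself, among them Hif1a and Epas1. Of the 26 kept, 4 lay past 2-fold on the lower side and 0 on the higher side. The ratio was below 0 for 12 and above it for 14, with a median of 0.11. With equal RPKM sums 21 were below 0 and 5 above, and the median was -0.36. Among all genes kept, 7.81% lay past 2-fold on the lower and 7.98% on the higher side, and the median was 0.08 as deposited and -0.39 with equal sums. The lower genes were Epas1, which encodes HIF-2alpha (2.48 and 0.436, log2 ratio -2.27), the adrenomedullin gene Adm (28.8 and 8.82, -1.70), the hexokinase gene Hk2 (11.0 and 3.75, -1.53) and Ndrg1 (3.87 and 1.34, -1.47). Hif1a was nearly level at 10.3 and 9.65. None of the 26 genes reached the ratio of Angptl4, the highest being Higd1a at 0.85.

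Angptl4 is also a target of PPAR receptors. Without Angptl4, the list of PPAR receptor and response genes had 13 genes kept, with 2 past 2-fold on the lower side and 0 on the higher side. The median log2 ratio was -0.24, against the same shares and median of all genes. The lower genes were the fatty acid binding protein genes Fabp3 (118 and 26.2, log2 ratio -2.16) and Fabp4 (10.6 and 4.53, log2 ratio -1.20). The receptor genes Ppard (12.6 and 10.7) and Pparg (2.49 and 2.22) differed by less than 2-fold, and the highest ratio other than that of Angptl4 was 0.45, for Acadm, a gene of mitochondrial fatty acid oxidation, which was at -0.03 with equal RPKM sums.

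**Figure D5:**
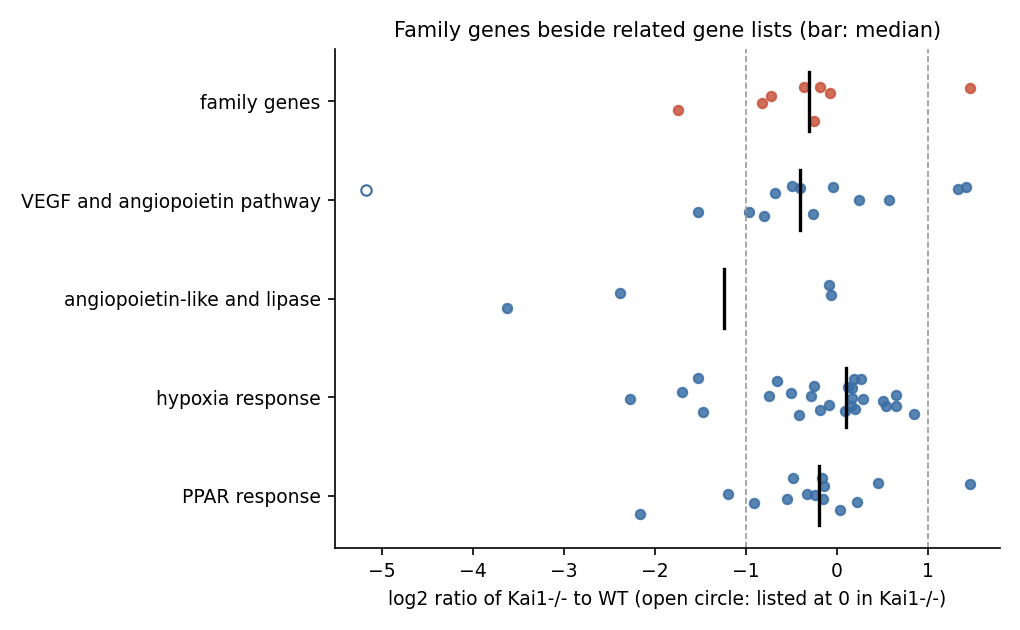
Log2 ratio of Kai1-/- to WT (x axis) for each gene kept in 5 lists, 1 point per gene, with the median as a black bar and dashed lines at 2-fold. The open circle is Angpt4, listed at 0 in Kai1-/-, whose position is set by the 0.1 added, and the rightmost point of the PPAR list is Angptl4 itself.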

How the data were processed

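Per the submitters' processing notes and the study's methods, the authors used TopHat2 2.0.9 with Bowtie against mm9 and deposited RPKM values, 1 for each RefSeq gene in each library. Differences were tested by them with Cuffdiff of Cufflinks, whose version is not given in the sources used here. RPKM divides by transcript length and mapped reads, so a few abundant genes can shift the others.

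Of 20462 rows, 38 without a symbol were removed and 153 repeated symbols averaged. Log2 ratios used a pseudocount of 0.1 RPKM, and genes averaging under 1 RPKM were set aside. Reads were estimated by matching low RPKM values of single-transcript genes over 800 bases, less a fragment of 200, to whole multiples of 1 read. Within 0.15 of a whole read lay 79.5% of WT and 77.8% of Kai1-/- values. The longest coding transcript in GENCODE M1 then gave reads per gene, which are approximate, more so for genes with several transcripts. Intervals (95%) were exact binomial for ratios and exact Poisson for levels. In simulated libraries of 9463 genes, 89 of 89 genes lowered to 0.25 and 100 of 100 raised 4-fold that passed the filter were called, and so were 3 unchanged genes. Both simulated libraries were drawn from the WT values with counting noise only. They hold no difference between animals or cultures, so the 3 calls give no error rate for the real pair.

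Genes named were the 10, Cd82, Gapdh, the kept genes of both pathway lists, up to 4 genes past 2-fold in each direction of other lists, and defining markers near 0. Acta2, Pdgfrb, Cspg4, Col3a1, Thy1, the Y-linked genes, Hif1a, Higd1a, Lpl, Ppard, Pparg and Acadm were added after their values were seen. So were Tek, Tie1, Flt4, Egfl7, Ptprb and Sox18. The genes and lists were chosen with earlier results of these data known. Promoters came from the RefSeq table of GRCm38.p6. Protein sequences were not analysed here. Also tried were pseudocounts of 1 and 0.01 RPKM, 4 scalings, no filter or a stricter one, and the highest row of a repeated symbol. Python 3.11.15, numpy 2.4.6, pandas 2.3.3, scipy 1.17.1 and matplotlib 3.10.9 were used.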

Additional observations from a re-analysis of the deposited data

How the results depend on the processing

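No paired analysis was possible because there was only 1 library of each genotype. Other pseudocounts, scalings and the handling of repeated symbols gave 56 recomputed ratios of the 8 genes, of which 35 moved by less than the reach of the counting interval to either side and 21 further. All 56 kept their sign, which was open only for Angptl4 under the 4 scalings (0.96 to 1.38), since these lower every ratio, a pseudocount cannot turn a sign and each of the 8 genes has 1 row. Scaling both libraries to the same RPKM sum, or to Gapdh, moved most values. The median of the 8 genes went from -0.31 to -0.77 and -0.78. That of the VEGF and angiopoietin pathway list went from -0.40 to -0.88 and -0.90, and that of the hypoxia list from 0.11 to -0.36 and -0.38. The median of the PPAR list, here with Angptl4 included, went from -0.20 to -0.68 and -0.69. Under both, 3 of the 10 genes lay past 2-fold on the lower side and 0 on the higher, against 1 and 1 as deposited. Among all genes, 786 were lower and 803 higher as deposited, 1816 and 286 with equal sums, 1856 and 278 with Gapdh, which itself had a log2 ratio of 0.50, 908 and 656 with the median set to 0, and 977 and 594 with equal upper quartiles. The hypoxia median also turned to -0.02 with equal upper quartiles. With every gene tested these counts were 1878 and 1205, and 2 of the 10 genes were lower, Pgf and Kdr, the latter by a ratio that the pseudocount sets. Testing only genes that averaged 5 RPKM or more gave 350 and 511. The angiopoietin-like and lipase median rested on 4 genes and went from -1.24 to -0.07 with every gene tested and -0.06 at 5 RPKM or more. Depth left a wide interval for Vegfc and no fold change for Kdr and Angpt1.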
